A study of Mus musculus with 12 samples.

Results

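Aminoacyl-tRNA synthetases were examined in 12 RNA-seq libraries of MEL cells after induction. MEL is an established line from a mouse erythroid leukemia, and inducing agents push it towards the red cell. The set held 36 genes of the 37991 genes counted, namely 20 cytosolic and 16 mitochondrial synthetases, taken by name as members of this enzyme family; all 36 were found in the count tables and all 36 passed the filter on low counts. Each of 4 groups held 3 libraries. In FL, LDB1 knockdown cells expressed full-length LDB1. In delta45, LDB1 knockdown cells expressed the LDB1 delta4/5 construct. KD was the LDB1 knockdown, for which the labels name no construct, and control was induced wild-type MEL cells. All 4 groups were induced MEL cells, and FL, delta45 and KD shared the knockdown. The sources used here do not give the inducing agent, the number of clones behind each line or whether replicates were separate cultures. The spread between libraries that the p-values rest on may therefore be technical. LDB1 is an adaptor protein that joins transcription factors at enhancers and promoters. The study's title concerns its part in chromatin looping and transcription activation.

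A synthetase joins an amino acid to its matching tRNA, and the charged tRNA then delivers the amino acid to the ribosome. The first letter of a symbol gives the amino acid in the single-letter code. The ending 2 marks a form used in the mitochondrial matrix, which makes the few proteins encoded by mitochondrial DNA. Farsa and Farsb encode the subunits of the cytosolic phenylalanyl enzyme, Eprs joins the glutamyl and the prolyl enzyme in a single protein, and Kars and Gars each serve both compartments. Eprs, Iars, Lars, Mars, Qars, Kars, Rars and Dars sit together in the multisynthetase complex. In mammals many cytosolic synthetase genes are targets of ATF4, a transcription factor made when amino acids run short or when the initiation factor eIF2 is phosphorylated. In red cell precursors the kinase HRI, encoded by Eif2ak1, phosphorylates eIF2 when heme is low.

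Promoter sequence was taken from RefSeq (GRCm38.p6), whose table held 27 of the 36 members, 13 cytosolic and 14 mitochondrial, as windows from 250 bases before to 50 bases after the start of the gene. Both strands were searched for TGATGNAA, the sequence form bound by ATF4 with a C/EBP partner, and for CACGTG, an E-box bound by MYC among others. A gene was counted if any of its windows held the letters (Aars2 had 2 windows). TGATGNAA was in 5 of 13 cytosolic members (38.5%) and in 0 of 14 mitochondrial members, against 4.51% of all 27025 genes with a promoter. CACGTG was in 4 of 13 cytosolic members (30.8%) and in 1 of 14 mitochondrial members (7.14%, Ears2), against 8.09% of all genes with a promoter. GATAA, the letters that GATA factors recognise, was in 1 of 13 cytosolic members (7.69%) and in 4 of 14 mitochondrial members (28.6%), against 28.4% of all genes with a promoter. The stretches of 150 bases before the start are shown for 4 cytosolic members whose window holds TGATGNAA, Aars, Gars, Iars and Tars, and for Qars, whose window has neither TGATGNAA nor CACGTG and whose level ran against most of its class. Capitals mark TGATGNAA on either strand and CACGTG. The stretches lie at chr8:111033692-111033841 (plus strand, Aars), chr6:55037851-55038000 (plus strand, Gars), chr13:49681980-49682129 (plus strand, Iars), chr15:11399659-11399808 (minus strand, Tars) and chr9:108507855-108508004 (plus strand, Qars).
Aars: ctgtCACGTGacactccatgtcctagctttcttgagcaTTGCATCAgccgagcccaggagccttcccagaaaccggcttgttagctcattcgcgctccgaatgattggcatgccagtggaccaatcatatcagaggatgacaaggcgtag
Gars: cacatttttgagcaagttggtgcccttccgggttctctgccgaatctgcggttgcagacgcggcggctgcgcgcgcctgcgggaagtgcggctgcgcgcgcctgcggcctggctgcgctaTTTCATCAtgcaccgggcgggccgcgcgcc
Iars: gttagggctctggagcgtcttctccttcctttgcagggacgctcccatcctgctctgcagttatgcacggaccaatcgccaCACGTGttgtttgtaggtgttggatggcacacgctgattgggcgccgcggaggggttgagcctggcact
Tars: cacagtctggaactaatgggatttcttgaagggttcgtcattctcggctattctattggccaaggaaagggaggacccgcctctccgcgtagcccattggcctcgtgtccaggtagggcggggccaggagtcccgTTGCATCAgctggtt
Qars: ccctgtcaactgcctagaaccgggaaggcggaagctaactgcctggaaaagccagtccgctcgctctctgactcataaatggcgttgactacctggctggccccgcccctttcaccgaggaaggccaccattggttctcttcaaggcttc
In Iars and Yars the TGATGNAA match lies at or just after the start, in the stretches of 24 bases at chr13:49682129-49682152 and chr4:129189898-129189921, both on the plus strand.
Iars site: tgtcagtaTTGCATCAcctccaga
Yars site: agctcagcTGATGCAAcccgacgg
A match is a stretch of letters and not a measured binding site.

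The libraries held 8783970 to 20464959 reads in genes. Levels are given as CPM (reads of a gene relative to all gene reads of its library) scaled by TMM, a method that sets libraries on a common scale from the genes they share. Ldb1 was at 3694, 3408 and 3207 CPM in FL, 749.9, 781 and 764 CPM in delta45, 159, 132 and 97.0 CPM in KD and 742, 772 and 637 CPM in control. The constructs were thus carried at unequal Ldb1 levels, FL above every other group. The 12 erythroid markers were all read in every library. Their summed level was 35330 to 42420 CPM in FL, 6118 to 6328 CPM in delta45, 3829 to 7207 CPM in KD and 12990 to 13950 CPM in control. A list of 8 interferon response genes summed to 188.3 to 191.9 CPM in FL, 129.9 to 140.5 CPM in delta45 and 1153 to 1411 CPM in control, but to 277.4, 4719 and 11830 CPM in the 3 KD libraries. Myeloid, lymphoid, and stromal and endothelial markers summed to at most 10.66, 45.23 and 9.822 CPM in any library, with 1 to 4 of the 6 myeloid, 1 to 3 of the 5 lymphoid and 1 to 3 of the 5 stromal genes at 0 reads. The erythroid sums of delta45 lay within the range of KD, and the interferon sums of KD ran from below to above those of control. The part of these erythroid and interferon levels in the synthetase results was not tested.

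Synthetase mRNA as a whole was highest in delta45. The 20 cytosolic members summed to 2893 ± 67.1 CPM in FL, 4502 ± 62.5 CPM in delta45, 3252 ± 78.8 CPM in KD and 3374 ± 301 CPM in control (SD, n = 3 each). The 16 mitochondrial members summed to 526.5 ± 16.8 CPM in FL, 819.6 ± 30.1 CPM in delta45, 632.1 ± 22.4 CPM in KD and 529.2 ± 13.0 CPM in control (SD, n = 3 each). No library of another group reached the delta45 libraries in either sum. Of the 20 cytosolic members 15 had their highest group mean in delta45, as did 10 of the 16 mitochondrial members and 27.4% of all 12837 genes tested. FL held the lowest mean for 10 cytosolic and 7 mitochondrial members, against 26.0% of all genes. In bulk RNA, fewer cells of a type and less RNA per cell cannot be told apart.

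Read per kilobase of annotated exon, cytosolic synthetases stood well above mitochondrial ones. The length counts every annotated exon base of a gene, can exceed that of the mRNA and bears on the ranks between genes. The median cytosolic member was at 30.8 CPM per kb in FL, 42.1 in delta45, 35.4 in KD and 31.1 in control, and the median mitochondrial member at 5.77, 7.12, 7.27 and 4.95 CPM per kb in the same order of groups. Cars, the cysteinyl enzyme, was the lowest cytosolic member in every group, at 3.98 CPM per kb in FL, 8.51 in delta45, 5.70 in KD and 7.47 in control. By this measure the highest cytosolic member was Qars in FL (53.2 CPM per kb), Iars in delta45 (95.6) and Gars in KD (58.3) and in control (68.5). By CPM without the length, Qars led in FL (349.7), and Aars led in delta45 (574.4), KD (322.4) and control (451.0). Among mitochondrial members Aars2 led in FL (11.4 CPM per kb) and in KD (19.1), and Tars2 led in delta45 (23.5) and in control (12.4). The median coefficient of variation between replicates was 5.58% in FL, 4.79% in delta45, 9.44% in KD and 8.69% in control for cytosolic members. For mitochondrial members it was 8.24%, 5.81%, 14.2% and 7.52% in that order. Single members varied more, up to 22.1% for a cytosolic member (Dars in control) and 28.4% for a mitochondrial one (Sars2 in KD). The fewest reads over a group of 3 libraries were 920 for a cytosolic member and 167 for a mitochondrial one, so the mitochondrial values carry the larger counting error.

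**Figure D1:**
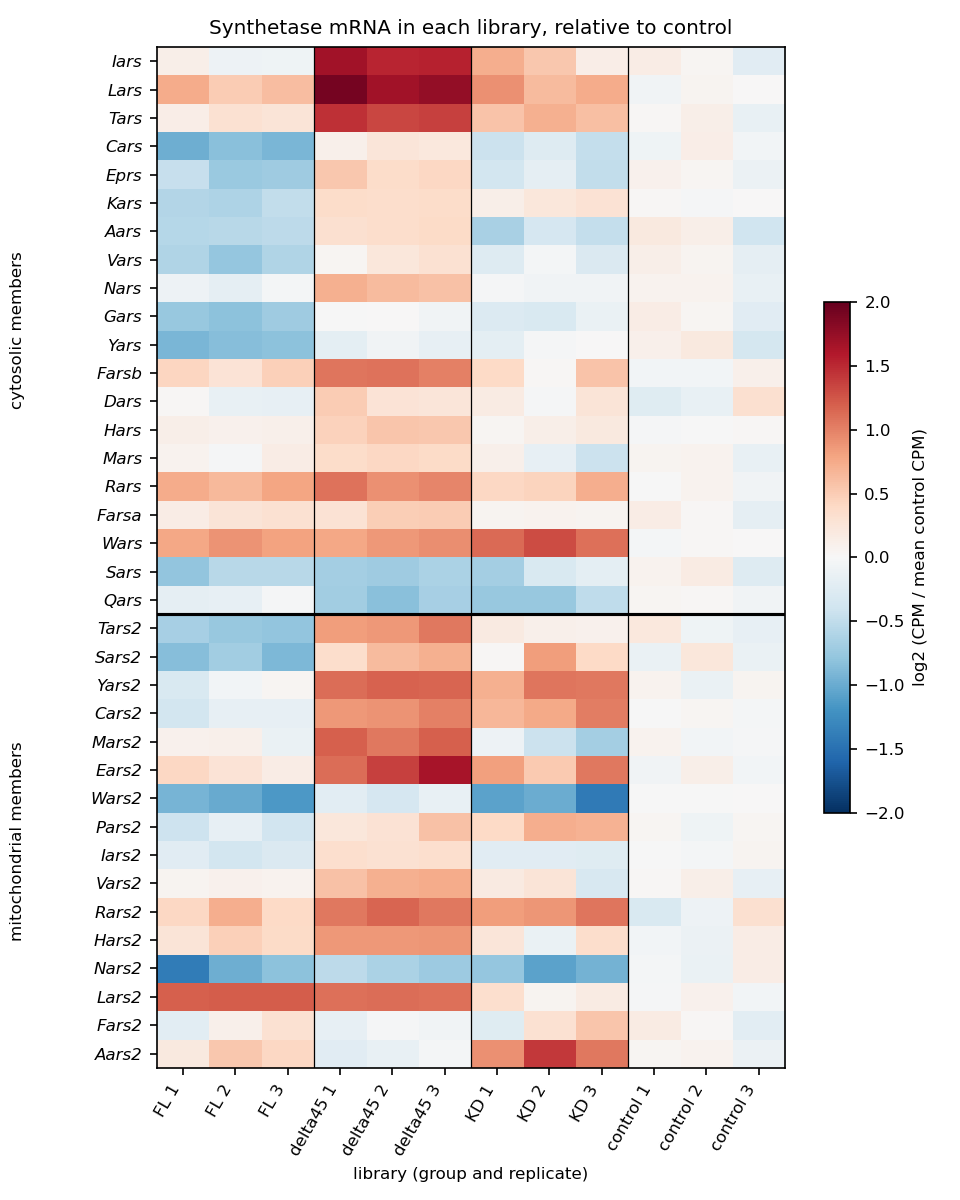
Level of each of the 36 synthetase genes in each of the 12 libraries, as log2 of CPM over the mean control CPM of the gene, with cytosolic members above and mitochondrial members below and columns running from FL through delta45 and KD to control. The delta45 columns of Iars, Lars and Tars are above every control column, while those of Qars, Sars, Nars2 and Wars2 are below every control column.

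The comparison of FL with delta45 sets knockdown cells carrying full-length LDB1 against knockdown cells carrying the delta4/5 construct. It had the most synthetases called of the 6 comparisons. Construct, its level, clone and culture cannot be told apart in it. With full-length LDB1 the cytosolic synthetases were lower nearly throughout: 16 of 20 fell, 1 rose (Qars) and 3 were not called (Farsa, Sars and Wars). The mitochondrial set moved the same way, with 13 of 16 lower, 1 higher (Aars2) and 2 not called (Fars2 and Lars2). The median change was -0.73 on the log2 scale for cytosolic members and -0.66 for mitochondrial members, beside -0.01 for all genes tested. A gene was called at an edgeR adjusted p under 0.05 over all tested genes, and 52.8% of them were called in this comparison, 25.8% higher and 27.0% lower. Called and at least 1.5-fold lower were 12 cytosolic and 10 mitochondrial members, and 1 and 0 were that much higher. Of all genes 40.5% were called and changed by that much in either direction. Libraries of the 2 groups did not overlap for 17 cytosolic and 15 mitochondrial members, against 69.0% of all genes. With library totals in place of TMM the median of all genes moved by -0.27 in this comparison, and the split of called genes changed from 48.8% higher to 29.2% higher; Aars2 then lost its call, leaving 0 mitochondrial members higher. The summed erythroid markers were 35330 to 42420 CPM in FL, against 6118 to 6328 CPM in delta45.

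Within the multisynthetase complex 7 of the 8 enzymes were lower in FL than in delta45, and Qars was higher. Iars, the isoleucyl enzyme, was at 183, 158 and 159 CPM in FL, 539, 486 and 488 CPM in delta45, 278, 246 and 185 CPM in KD and 188, 174 and 145 CPM in control. Each delta45 library lay above every library of the other groups, and the level in FL was 3.03-fold lower than in delta45 (log2 -1.60 ± 0.15, edgeR adjusted p = 1.31e-06); the value after ± beside a log2 change is its standard error throughout. Lars, which charges leucine tRNA and is also a leucine sensor for the growth kinase mTORC1, was at 90.3, 76.4 and 82.5 CPM in FL, 203, 173 and 182 CPM in delta45, 102, 83.6 and 89.9 CPM in KD and 51.5, 56.0 and 54.5 CPM in control. Here too delta45 was apart from all other libraries, and FL was 2.24-fold lower than delta45 (log2 -1.16 ± 0.11, edgeR adjusted p = 1.43e-06). Eprs was at 184, 152 and 156 CPM in FL, 370.3, 329.6 and 340.0 CPM in delta45, 198, 224 and 181 CPM in KD and 269, 261 and 234 CPM in control, with FL and delta45 well separated (2.11-fold lower in FL, log2 -1.08 ± 0.12, edgeR adjusted p = 4.39e-06). Kars, the lysyl enzyme of both compartments, was at 101, 98.9 and 107 CPM in FL, 195, 193 and 196 CPM in delta45, 165, 178 and 184 CPM in KD and 154, 149 and 152 CPM in control. Its FL libraries were the lowest of the 12, 1.90-fold lower than delta45 (log2 -0.93 ± 0.086, edgeR adjusted p = 1.23e-06).

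Qars, the glutaminyl enzyme, was the exception of the complex. It was at 337, 339 and 372 CPM in FL, 236, 213 and 239 CPM in delta45, 224, 225 and 267 CPM in KD and 391, 388 and 361 CPM in control. FL and control formed a high pair of groups and delta45 and KD a low pair, with no overlap between the pairs. FL was 1.53-fold higher than delta45 (log2 0.61 ± 0.10, edgeR adjusted p = 0.000233). The remaining complex enzymes moved less. Dars, the aspartyl enzyme, averaged 80.3 ± 6.08 CPM in FL, 109 ± 11.4 in delta45, 94.0 ± 8.92 in KD and 85.5 ± 18.9 in control (mean CPM ± SD, n = 3 each), a difference of -0.44 ± 0.15 on the log2 scale between FL and delta45 (edgeR adjusted p = 0.0229). Mars, the methionyl enzyme that also serves initiation, averaged 142 ± 8.51 CPM in FL, 178 ± 2.82 in delta45, 123 ± 22.8 in KD and 136 ± 11.3 in control and fell by 0.33 ± 0.12 on the log2 scale in FL against delta45 (edgeR adjusted p = 0.0428). Rars, the arginyl enzyme, was at 159, 149 and 165 CPM in FL, 203, 181 and 189 CPM in delta45, 126, 129 and 158 CPM in KD and 95.2, 99.7 and 91.3 CPM in control, with FL below delta45 by a log2 change of -0.28 ± 0.11 (edgeR adjusted p = 0.0417). These 3 calls were not steady. Those of Mars and Rars were lost without any 1 of the 6 libraries (log2 -0.37 to -0.28 for Mars and -0.31 to -0.19 for Rars), and that of Dars without FL replicate 2, FL replicate 3, delta45 replicate 1 or delta45 replicate 2 (log2 -0.44 to -0.31).

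**Figure D2:**
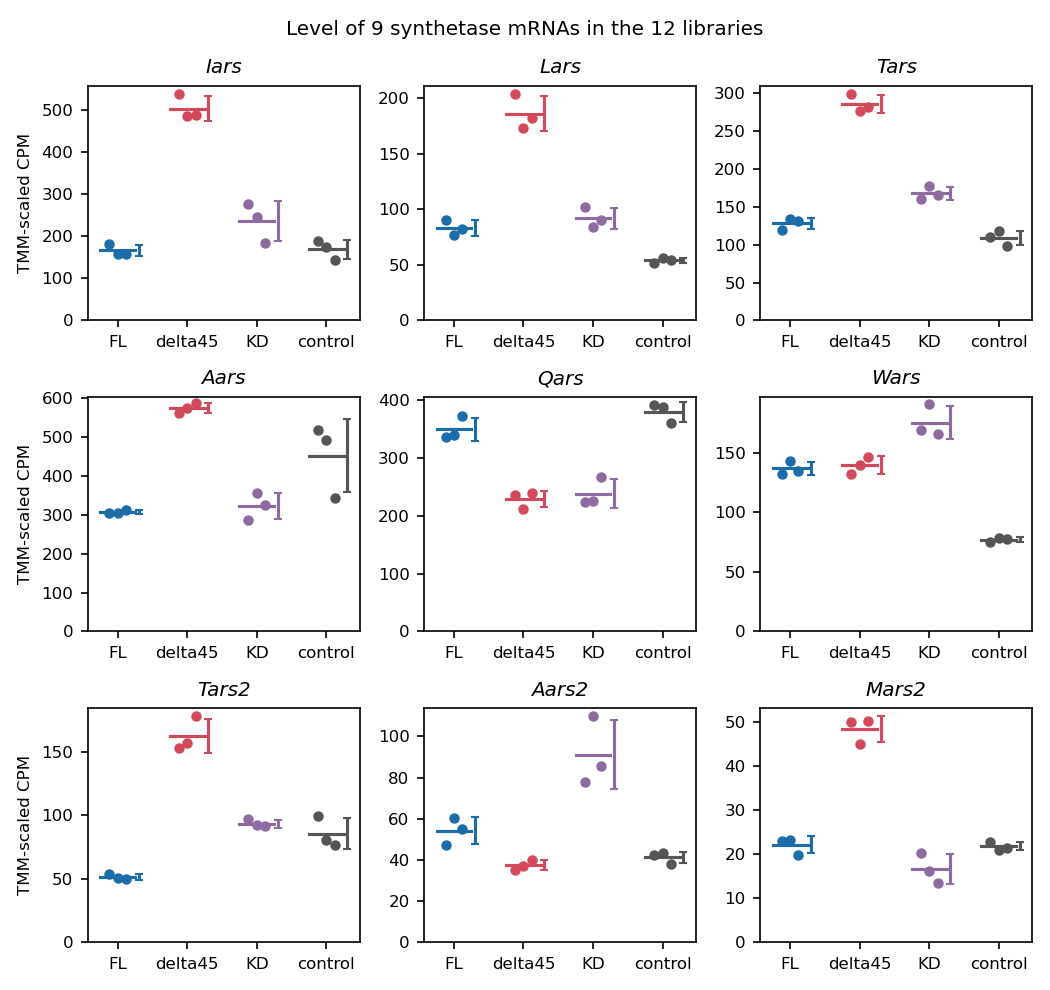
TMM-scaled CPM of 9 synthetases in each library, 1 panel per gene, with points for the 3 libraries of a group, a horizontal line for the mean and a bar for the SD. Iars is highest in delta45, between 486 and 539 CPM, Qars is low in delta45 and KD and high in FL and control, and Wars is lowest in control.

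Outside the complex 9 of 12 cytosolic members were lower in FL than in delta45 and 0 were higher. Tars, the threonyl enzyme, was at 119.6, 134 and 131 CPM in FL, 299, 276 and 281 CPM in delta45, 161, 178 and 165 CPM in KD and 110.1, 118 and 98.6 CPM in control. The delta45 libraries exceeded all others, and FL was 2.23-fold lower (log2 -1.16 ± 0.098, edgeR adjusted p = 5.43e-07). Cars was at 24.98, 27.4 and 26.1 CPM in FL, 52.9, 57.9 and 57.2 CPM in delta45, 36.4, 41.0 and 35.2 CPM in KD and 46.3, 54.0 and 47.3 CPM in control, with the FL libraries the lowest of all (2.14-fold lower than delta45, log2 -1.10 ± 0.11, edgeR adjusted p = 2.14e-06). For Aars, the alanyl enzyme, the levels were 304, 306 and 313 CPM in FL, 561, 575 and 587 CPM in delta45, 287, 356 and 325 CPM in KD and 518, 491 and 344 CPM in control. Its delta45 libraries were again apart, although control replicates 1 and 2 came near them, and the FL change was -0.90 ± 0.14 on the log2 scale (edgeR adjusted p = 0.000119). Gars, the glycyl enzyme of both compartments, was at 126, 120.5 and 131 CPM in FL, 212, 215 and 203 CPM in delta45, 177, 174 and 196 CPM in KD and 238, 219.8 and 183 CPM in control, with FL below every other library (1.67-fold lower than delta45, log2 -0.74 ± 0.11, edgeR adjusted p = 7.05e-05). The exons of Aars share 15.1% of their bases with other genes, mainly Exosc6 on the same strand, and reads of such stretches cannot be assigned with certainty.

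Of the subunits of the phenylalanyl enzyme Farsb was called and Farsa was not. Farsb, the beta subunit, was at 75.7, 67.7 and 78.2 CPM in FL, 118, 119 and 112 CPM in delta45, 73.5, 57.0 and 83.1 CPM in KD and 54.0, 53.9 and 60.2 CPM in control, and FL was 1.58-fold lower than delta45 (log2 -0.66 ± 0.13, edgeR adjusted p = 0.000785). Farsa, the catalytic alpha subunit, was at 128, 138 and 143 CPM in FL, 141, 162 and 164 CPM in delta45, 119, 121 and 119 CPM in KD and 127, 117 and 101 CPM in control. Its FL and delta45 libraries overlapped, and the difference was not called (log2 -0.19 ± 0.10, edgeR adjusted p = 0.148); it was called with library totals (log2 -0.47). Whether the subunits differ in their change was not tested. Hars, the histidyl enzyme, averaged 129 ± 1.77 CPM in FL, 173 ± 6.05 in delta45, 131 ± 7.21 in KD and 121 ± 2.05 in control, and FL was below delta45 by a log2 change of -0.42 ± 0.084 (edgeR adjusted p = 0.000907). Nars, the asparaginyl enzyme, averaged 162 ± 7.4 CPM in FL, 273 ± 12.9 in delta45, 168 ± 3.14 in KD and 175 ± 15.6 in control, with a log2 change of -0.75 ± 0.095 (edgeR adjusted p = 2.01e-05). Vars, the valyl enzyme, averaged 126 ± 7.87 CPM in FL, 227 ± 20.8 in delta45, 174 ± 16.3 in KD and 198 ± 21.1 in control, with a log2 change of -0.85 ± 0.12 (edgeR adjusted p = 3.92e-05). The highest mean of each of these 5 genes was in delta45, although Vars did not differ between delta45 and control beyond the spread (log2 0.19 ± 0.12, edgeR adjusted p = 0.153).

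Among the mitochondrial synthetases Tars2, Sars2 and Yars2 differed by the widest folds. Tars2, for threonine, was at 54.2, 50.6 and 49.8 CPM in FL, 153, 157 and 178 CPM in delta45, 97.2, 92.3 and 91.3 CPM in KD and 99.5, 81.0 and 76.5 CPM in control. Its delta45 libraries exceeded all others and its FL libraries were below all others, a 3.16-fold difference (log2 -1.66 ± 0.12, edgeR adjusted p = 8.17e-08). Sars2, for serine, was at 5.21, 5.81 and 5.00 CPM in FL, 11.9, 14.6 and 15.3 CPM in delta45, 9.47, 16.7 and 12.3 CPM in KD and 8.57, 10.9 and 8.57 CPM in control, the FL libraries again the lowest (2.61-fold, log2 -1.38 ± 0.21, edgeR adjusted p = 0.000125). Yars2, for tyrosine, was at 13.3, 15.8 and 16.9 CPM in FL, 35.8, 37.2 and 36.9 CPM in delta45, 26.9, 34.5 and 34.1 CPM in KD and 17.4, 15.03 and 17.1 CPM in control, and FL was 2.38-fold lower than delta45 (log2 -1.25 ± 0.14, edgeR adjusted p = 5.26e-06). Nars2, for asparagine, was called at -0.42 ± 0.16 (edgeR adjusted p = 0.0469), but not without FL replicate 1, FL replicate 2 or any delta45 library (log2 -0.45 to -0.27). FL and control overlapped for Yars2, so that its low level in FL was shared with control. Aars2, for alanine, was the only mitochondrial member higher in FL than in delta45. It was at 47.3, 60.2 and 55.2 CPM in FL, 35.2, 37.2 and 40.1 CPM in delta45, 77.8, 110.0 and 85.6 CPM in KD and 42.5, 43.3 and 38.2 CPM in control, all KD libraries above the other 9 and delta45 overlapping control at the low end (1.45-fold higher in FL, log2 0.53 ± 0.14, edgeR adjusted p = 0.00579; log2 0.26 and not called with library totals).

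The comparison of delta45 with KD shows what the knockdown cells carrying the delta4/5 construct differed in from the knockdown cells alone. It cannot tell construct, clone and culture apart. Synthetases were mostly higher in delta45: 13 of 20 cytosolic members rose and Wars fell, and 8 of 16 mitochondrial members rose and Aars2 fell. Of all tested genes 59.9% were called, 29.2% higher and 30.7% lower. The median change was 0.44 for cytosolic and 0.43 for mitochondrial members, beside -0.01 for all genes. Called and at least 1.5-fold higher were 7 cytosolic and 6 mitochondrial members, and 0 and 1 were that much lower. Of all genes 45.3% were called and changed by that much in either direction. Groups did not overlap for 16 cytosolic and 11 mitochondrial members, against 63.5% of all genes. The count of 13 was the same whichever library was left out, and the mitochondrial count was 7 or 8. Lower cytosolic members numbered 0 without delta45 replicate 1 and 2 without KD replicate 1, and lower mitochondrial members numbered 2 without KD replicate 1. Interferon response genes summed to 129.9 to 140.5 CPM in delta45, against 277.4 to 11830 CPM in KD.

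In the complex the largest rises were those of Iars (2.14-fold, log2 1.09 ± 0.15, edgeR adjusted p = 4.69e-05) and Lars (2.02-fold, log2 1.02 ± 0.11, edgeR adjusted p = 7.56e-06). Eprs was 1.73-fold higher (log2 0.79 ± 0.11, edgeR adjusted p = 8.65e-05), from the library values given above, which did not overlap between delta45 and KD. Outside it Aars rose 1.78-fold (log2 0.83 ± 0.14, edgeR adjusted p = 0.000253) and Tars 1.7-fold (log2 0.77 ± 0.097, edgeR adjusted p = 3e-05). Both phenylalanyl subunits were higher, Farsb 1.63-fold (edgeR adjusted p = 0.000458) and Farsa 1.30-fold (edgeR adjusted p = 0.00774). Kars and Gars, the enzymes of both compartments, did not pass the test, with log2 changes of 0.15 ± 0.085 (edgeR adjusted p = 0.149) and 0.21 ± 0.11 (edgeR adjusted p = 0.111), although their libraries did not overlap; DESeq2 called Kars (log2 0.15, adjusted p = 0.0489). Qars differed by -0.06 ± 0.10 on the log2 scale and its libraries overlapped (edgeR adjusted p = 0.635).

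Mars2, the mitochondrial methionyl enzyme, had the largest rise of all members in delta45 against KD. It was at 23.1, 23.4 and 19.9 CPM in FL, 49.97, 45.0 and 50.1 CPM in delta45, 20.3, 16.2 and 13.6 CPM in KD and 22.8, 21.1 and 21.5 CPM in control. The delta45 libraries were all above the other 9, and the difference was 2.89-fold (log2 1.53 ± 0.14, edgeR adjusted p = 2.7e-06). Wars2, for tryptophan, was at 11.9, 11.3 and 10.2 CPM in FL, 19.6, 17.9 and 20.3 CPM in delta45, 10.7, 11.4 and 8.49 CPM in KD and 22.5, 22.4 and 22.8 CPM in control. It was 1.89-fold higher in delta45 than in KD (log2 0.92 ± 0.14, edgeR adjusted p = 0.000126), and the control libraries lay above those of delta45, a difference that was not called (log2 -0.23 ± 0.14, edgeR adjusted p = 0.156). In the opposite direction Aars2 was 2.43-fold lower in delta45 than in KD (log2 -1.28 ± 0.14, edgeR adjusted p = 8.9e-06).

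FL against KD sets the knockdown cells carrying full-length LDB1 against the knockdown cells alone. Construct, clone and culture cannot be told apart here. Cytosolic synthetases were mostly lower or not called: 9 of 20 fell, Qars rose and 10 were not called. Of the mitochondrial members 8 of 16 fell, 2 rose (Lars2 and Mars2) and 6 were not called. The share of all tested genes called was 58.0%, with 26.3% higher and 31.7% lower. The median change was -0.24 for cytosolic and -0.28 for mitochondrial members, beside -0.06 for all genes. Called and at least 1.5-fold lower were 2 cytosolic and 6 mitochondrial members, and 0 and 1 were that much higher. Of all genes 44.2% were called and changed by that much in either direction. Groups did not overlap for 10 cytosolic and 9 mitochondrial members, against 59.7% of all genes. Scaling bore on this count: with library totals the median of all genes moved by -0.27, the share of called genes that were higher was 26.7% in place of 45.4%, 15 cytosolic members were lower and 1 mitochondrial member was higher. Cytosolic members higher numbered 2 without KD replicate 1 or KD replicate 3, and mitochondrial members higher numbered 1 without KD replicate 3, FL replicate 1 or FL replicate 2. The summed erythroid markers were 35330 to 42420 CPM in FL, against 3829 to 7207 CPM in KD.

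**Figure D3:**
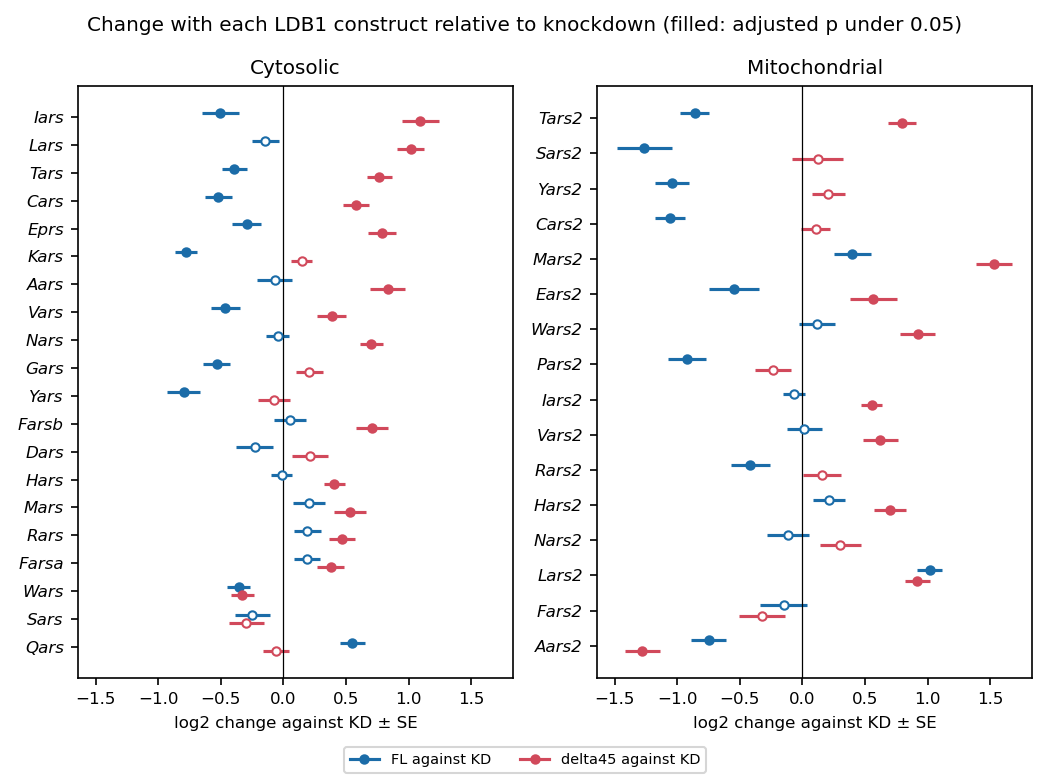
Log2 change against KD, with its standard error, of each cytosolic synthetase (left) and each mitochondrial synthetase (right), for FL and for delta45; filled points had an edgeR adjusted p under 0.05. FL and delta45 were set against the same 3 KD libraries; delta45 lies to the right of FL for most members, and FL lies to the right for Qars, Aars2 and Lars2 and for the uncalled Sars and Fars2.

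Yars, the tyrosyl enzyme, had the largest cytosolic fall in FL. It was at 94.4, 99.2 and 101 CPM in FL, 156, 169.6 and 159.8 CPM in delta45, 157, 175 and 180.1 CPM in KD and 192, 205 and 139.7 CPM in control. All 3 FL libraries were below the other 9 (1.74-fold lower than KD, log2 -0.80 ± 0.13, edgeR adjusted p = 0.000191). Kars was 1.72-fold lower than in KD (log2 -0.78 ± 0.086, edgeR adjusted p = 7.22e-06), Gars 1.45-fold lower (log2 -0.53 ± 0.11, edgeR adjusted p = 0.00094) and Cars 1.43-fold lower (log2 -0.52 ± 0.11, edgeR adjusted p = 0.00124). Qars was 1.46-fold higher (log2 0.55 ± 0.10, edgeR adjusted p = 0.000514). The Eprs change was -0.29 ± 0.11 (edgeR adjusted p = 0.0419), and it lost its call without KD replicate 1, KD replicate 2, FL replicate 2 or FL replicate 3 (log2 -0.26 to -0.14), and with RLE scaling, no low-count filter, DESeq2 or the 6 compared libraries alone (log2 -0.28 to -0.24). Neither Farsa (log2 0.19 ± 0.11, edgeR adjusted p = 0.143) nor Farsb (log2 0.05 ± 0.13, edgeR adjusted p = 0.745) passed the test; both differences were negative with library totals, at -0.08 and -0.21, and that of Farsb was -0.02 without KD replicate 2.

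Of the mitochondrial members Sars2 was 2.40-fold lower in FL than in KD (log2 -1.26 ± 0.22, edgeR adjusted p = 0.000297) and Yars2 2.06-fold lower (log2 -1.04 ± 0.14, edgeR adjusted p = 3.11e-05). Cars2, for cysteine, was at 21.6, 24.7 and 24.8 CPM in FL, 51.0, 52.2 and 56.3 CPM in delta45, 44.4, 47.2 and 56.8 CPM in KD and 27.8, 28.8 and 27.0 CPM in control. FL and control were both low, and FL was 2.08-fold below KD (log2 -1.06 ± 0.12, edgeR adjusted p = 7.92e-06). Lars2, for leucine, had another order of groups. It was at 81.6, 81.8 and 82.1 CPM in FL, 76.2, 77.0 and 76.2 CPM in delta45, 44.7, 36.9 and 39.7 CPM in KD and 34.8, 37.5 and 34.2 CPM in control, so that both constructs were high and KD and control low. FL was 2.02-fold higher than KD (log2 1.02 ± 0.099, edgeR adjusted p = 2.42e-06). The Mars2 rise was 0.40 ± 0.15 (edgeR adjusted p = 0.0322), with overlapping libraries, and was lost without KD replicate 3 (log2 0.26), FL replicate 1 (log2 0.37) or FL replicate 2 (log2 0.36), with library totals (log2 0.12) and with the 6 compared libraries alone (log2 0.45).

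KD against control sets the knockdown cells against the wild-type cells, and here synthetases were called in both directions. Knockdown, clone and culture cannot be told apart in this comparison. Of the cytosolic members 6 rose, 5 fell and 9 were not called, with a median change of -0.00. Of the mitochondrial members 6 rose, 4 fell and 6 were not called, with a median of 0.22. The background was 49.7% of genes called, 25.6% higher and 24.1% lower, with a median of 0.02. Called and at least 1.5-fold different were 4 cytosolic and 8 mitochondrial members, against 35.9% of all genes. Groups did not overlap for 9 cytosolic and 10 mitochondrial members, against 50.7% of all genes. With 11 of 20 cytosolic and 10 of 16 mitochondrial members called, both classes were near the background. The lower counts were the least steady: 2 cytosolic members were lower without control replicate 1 and 3 without control replicate 2, and 2 mitochondrial members were lower without KD replicate 2, KD replicate 3 or any control library. Interferon response genes ranged from 277.4 to 11830 CPM in KD, against 1153 to 1411 CPM in control.

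Wars, the tryptophanyl enzyme, which is induced by interferon in human cells, was the cytosolic member with the largest rise in KD. It was at 133, 144 and 135 CPM in FL, 132, 140.2 and 147 CPM in delta45, 169, 191 and 166 CPM in KD and 75.2, 78.9 and 77.6 CPM in control. All control libraries were below all others, and KD was 2.27-fold above control (log2 1.19 ± 0.093, edgeR adjusted p = 7.95e-07). The interferon sums of the KD libraries, given above, ranged from 277.4 to 11830 CPM, and the part of the interferon response in the Wars level was not tested. Wars was above control in FL and delta45 as well, FL by 1.77-fold (log2 0.83 ± 0.093, edgeR adjusted p = 6.88e-06) and delta45 by 1.81-fold (log2 0.86 ± 0.093, edgeR adjusted p = 4.21e-06). Wars was lower in both constructs than in KD, by log2 changes of -0.36 ± 0.092 in FL (edgeR adjusted p = 0.00476; -0.23 and not called without KD replicate 2, and -0.30 and not called with the 6 compared libraries alone) and -0.33 ± 0.091 in delta45 (edgeR adjusted p = 0.00759; -0.27 and not called without delta45 replicate 1). FL and delta45 overlapped and did not differ beyond their spread (log2 -0.03 ± 0.092, edgeR adjusted p = 0.813; 0.01 without delta45 replicate 2, 0.04 without delta45 replicate 3, and called at -0.31 with library totals).

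The other cytosolic rises in KD were those of Lars (1.7-fold, log2 0.77 ± 0.11, edgeR adjusted p = 9.5e-05), Tars (1.54-fold, log2 0.63 ± 0.098, edgeR adjusted p = 0.000184), Rars (1.45-fold, log2 0.53 ± 0.11, edgeR adjusted p = 0.00112), Iars (log2 0.48 ± 0.15, edgeR adjusted p = 0.0148) and Farsb (log2 0.35 ± 0.13, edgeR adjusted p = 0.0407). The Iars call was lost without KD replicate 1 or control replicate 3 (log2 0.35 and 0.37). The Farsb call was lost without KD replicate 1, KD replicate 3, control replicate 1 or control replicate 2 (log2 0.22 to 0.32). Qars fell 1.59-fold (log2 -0.67 ± 0.10, edgeR adjusted p = 0.000153). Lower too were Aars (log2 -0.48 ± 0.14, edgeR adjusted p = 0.0112; -0.37 and not called without control replicate 1), Cars (log2 -0.39 ± 0.11, edgeR adjusted p = 0.00848) and Eprs (log2 -0.34 ± 0.11, edgeR adjusted p = 0.0241; -0.32 to -0.27 and not called without KD replicate 3, control replicate 1 or control replicate 2). Sars, the seryl enzyme, was at 176, 208 and 207 CPM in FL, 190.5, 186 and 196 CPM in delta45, 189, 247 and 266 CPM in KD and 319, 341 and 253 CPM in control, with the highest mean in control and KD replicate 3 above control replicate 3, and the KD change was -0.38 ± 0.14 (edgeR adjusted p = 0.0394), not called without KD replicate 1, KD replicate 2, control replicate 1 or control replicate 2 (log2 -0.43 to -0.25). Farsa (log2 0.06 ± 0.11, edgeR adjusted p = 0.667), Gars (log2 -0.23 ± 0.11, edgeR adjusted p = 0.0892) and Kars (log2 0.21 ± 0.085, edgeR adjusted p = 0.0526) were not called. The Farsa difference was -0.04 without control replicate 3. Gars became lower without KD replicate 3 (log2 -0.28) or control replicate 3 (log2 -0.34), and Kars became higher without KD replicate 1 (log2 0.25) and with library totals (log2 0.26). DESeq2 called both, Gars at -0.27 and Kars at 0.18. With the 6 compared libraries alone Aars, Cars, Eprs and Farsb were not called, nor was Farsb with RLE scaling or without the low-count filter, or Eprs with library totals.

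Mitochondrial members with the largest changes in KD ran in opposite directions. Wars2 was 2.21-fold lower (log2 -1.15 ± 0.14, edgeR adjusted p = 2.81e-05), Aars2 2.20-fold higher (log2 1.14 ± 0.14, edgeR adjusted p = 2.81e-05) and Yars2 1.93-fold higher (log2 0.95 ± 0.14, edgeR adjusted p = 9.48e-05). Nars2 was at 8.43, 11.3 and 12.5 CPM in FL, 15.4, 14.3 and 13.4 CPM in delta45, 12.9, 10.5 and 11.6 CPM in KD and 21.6, 20.1 and 24.6 CPM in control, with control above every other library and a KD level 1.90-fold lower (log2 -0.92 ± 0.16, edgeR adjusted p = 0.000464). Rars2, for arginine, was at 25.3, 31.2 and 25.1 CPM in FL, 39.5, 42.4 and 39.2 CPM in delta45, 34.0, 34.9 and 39.7 CPM in KD and 15.4, 17.7 and 23.7 CPM in control, and KD was higher by 0.92 ± 0.16 on the log2 scale (edgeR adjusted p = 0.000345). Mars2 was lower by a log2 change of -0.38 ± 0.15 (edgeR adjusted p = 0.0457), a call lost without KD replicate 2, KD replicate 3 or any control library (log2 -0.40 to -0.24), with library totals, without the low-count filter and with the 6 compared libraries alone (log2 -0.38 to -0.32).

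FL and delta45 were also set against the same 3 control libraries, and the values of each comparison are given side by side. The share of reads aligned to several places, which the counts leave out, was 42.26 to 47.12% in FL, 38.69 to 39.22% in delta45 and 42.69 to 48.51% in KD, against 50.6 to 53.31% in control, and its part in these comparisons was not tested. In FL against control 4 cytosolic members rose, 8 fell and 8 were not called, with 4, 5 and 7 of the mitochondrial members (59.3% of all genes called, 28.1% higher and 31.2% lower). In delta45 against control 13 cytosolic members rose, 2 fell and 5 were not called, with 12, 1 and 3 of the mitochondrial members (64.4% of all genes called, 31.9% higher and 32.5% lower). Median changes were -0.10 and -0.04 in FL for cytosolic and mitochondrial members, and 0.41 and 0.78 in delta45, with medians over all genes of -0.01 in FL and 0.01 in delta45. Groups did not overlap for 15 cytosolic and 12 mitochondrial members in FL (69.8% of all genes), and for 15 and 14 in delta45 (74.5%). Called and at least 1.5-fold different were 9 cytosolic and 5 mitochondrial members in FL (45.8% of all genes), and 9 and 10 in delta45 (51.1%). With library totals the share of called genes that were higher in FL was 31.8% in place of 47.4%, the median moved by -0.22 and 1 mitochondrial member was higher. That mitochondrial count was 1 without FL replicate 2 or control replicate 1, and 2 without FL replicate 3 or control replicate 2.

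In FL the largest cytosolic changes from control were the falls of Cars (1.88-fold, log2 -0.91 ± 0.11, edgeR adjusted p = 1.18e-05), Yars (1.82-fold, log2 -0.86 ± 0.13, edgeR adjusted p = 8.82e-05) and Gars (1.7-fold, log2 -0.76 ± 0.11, edgeR adjusted p = 4.98e-05). Eprs fell 1.55-fold (edgeR adjusted p = 0.000371) and Kars 1.48-fold (edgeR adjusted p = 9.22e-05). Rars rose 1.65-fold (edgeR adjusted p = 7.26e-05) and Lars 1.54-fold (edgeR adjusted p = 0.000328). Farsb rose by 0.40 ± 0.13 on the log2 scale (edgeR adjusted p = 0.0175), a call lost without FL replicate 3, control replicate 1 or control replicate 2 (log2 0.35 to 0.37). Farsa was not called (log2 0.25 ± 0.11, edgeR adjusted p = 0.0593) but was called without control replicate 1 (log2 0.32). Qars differed by -0.12 ± 0.10, with overlapping libraries (edgeR adjusted p = 0.327; called at -0.34 with library totals). Among mitochondrial members Lars2 rose 2.31-fold (edgeR adjusted p = 4.5e-07), while Nars2 fell 2.06-fold (edgeR adjusted p = 0.000133) and Wars2 2.04-fold (edgeR adjusted p = 3.86e-05). Rises of Rars2 (0.51 ± 0.16, edgeR adjusted p = 0.0139) and Aars2 (0.39 ± 0.14, edgeR adjusted p = 0.0275) were not steady: Rars2 was not called without FL replicate 2, control replicate 1 or control replicate 2 (log2 0.38 to 0.46), and Aars2 was not called without FL replicate 2, FL replicate 3, control replicate 1 or control replicate 3 (log2 0.31 to 0.41). With library totals Rars2 (log2 0.29), Aars2 (log2 0.17) and Farsb (log2 0.18) were not called.

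In delta45 the largest cytosolic changes from control were rises. Lars was 3.44-fold higher (log2 1.78 ± 0.11, edgeR adjusted p = 4.01e-08), Iars 2.99-fold (log2 1.58 ± 0.15, edgeR adjusted p = 1.23e-06), Tars 2.63-fold (log2 1.39 ± 0.099, edgeR adjusted p = 1.14e-07), Farsb 2.08-fold (edgeR adjusted p = 1.28e-05) and Rars 2.0-fold (edgeR adjusted p = 3.72e-06). Smaller rises were those of Eprs (1.36-fold, edgeR adjusted p = 0.00384), Farsa (1.35-fold, edgeR adjusted p = 0.00271) and Kars (1.28-fold, edgeR adjusted p = 0.0023). Qars fell 1.66-fold (edgeR adjusted p = 3.98e-05) and Sars 1.6-fold (edgeR adjusted p = 0.000994). Gars was not called against control (log2 -0.02 ± 0.11, edgeR adjusted p = 0.85), and the sign of that difference turned with library totals (0.03) and without delta45 replicate 3 (0.03) or control replicate 1 (0.06). Ears2, the mitochondrial glutamyl enzyme, was at 6.14, 5.58 and 5.12 CPM in FL, 9.97, 11.9 and 14.4 CPM in delta45, 8.15, 6.62 and 9.62 CPM in KD and 4.39, 5.01 and 4.46 CPM in control, highest in delta45 (2.61-fold above control, log2 1.39 ± 0.20, edgeR adjusted p = 4.64e-05). Mars2 and Yars2 were each 2.22-fold above control (edgeR adjusted p = 1.34e-05 and 8.57e-06), and Nars2 was 1.54-fold below (edgeR adjusted p = 0.00401).

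Of the mitochondrial members not yet given Iars2, for isoleucine, averaged 73.8 ± 3.76 CPM in FL, 113 ± 1.04 in delta45, 77.3 ± 0.37 in KD and 90.6 ± 3.02 in control, with delta45 above the rest. Vars2, for valine, averaged 52.1 ± 0.497 CPM in FL, 79.4 ± 4.45 in delta45, 51.6 ± 10.3 in KD and 49.5 ± 4.83 in control, and Hars2, for histidine, averaged 42.1 ± 3.24 CPM in FL, 59.0 ± 0.388 in delta45, 36.3 ± 5.99 in KD and 32.3 ± 3.25 in control, again highest in delta45. Pars2, for proline, averaged 11.6 ± 1.13 CPM in FL, 18.7 ± 2.56 in delta45, 22.0 ± 2.71 in KD and 14.4 ± 0.744 in control and was lower in FL than in KD (log2 -0.92 ± 0.15, edgeR adjusted p = 0.00019). Fars2, for phenylalanine, averaged 38.3 ± 6.7 CPM in FL, 34.1 ± 1.77 in delta45, 42.7 ± 11.3 in KD and 36.2 ± 4.65 in control and was called in 0 of the 6 comparisons, the only member of which this holds, against 7.03% of all genes; without KD replicate 1 it was called in KD against control (log2 0.43) and in delta45 against KD (log2 -0.49). Hars and Hars2 share 195 exon bases, and 24.2% of the exon bases of Iars2 lie in other annotated genes, the highest share of any member; 13 members share some exon bases and 7 share over 5%, and the libraries do not mark the strand.

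For 14 amino acids a cytosolic and a mitochondrial enzyme could be set side by side. The counts of pairs depend on the counts of each class. In FL against delta45 16 of 20 cytosolic and 13 of 16 mitochondrial members were lower, against 27.0% of all genes. In delta45 against KD 13 and 8 were higher, against 29.2% of all genes. Whether pairs moved together beyond these counts was not tested. In FL against delta45 both members of 9 pairs were called in the same direction, lower in FL in each case, and 1 pair, alanine, ran in opposite directions (Aars -0.90 ± 0.14, Aars2 0.53 ± 0.14 on the log2 scale). In delta45 against KD 6 pairs moved together, while alanine (Aars 0.83 ± 0.14, Aars2 -1.28 ± 0.14) and tryptophan (Wars -0.33 ± 0.091, Wars2 0.92 ± 0.14) were split. In KD against control only the arginine pair was called in the same direction, and 4 pairs were split, namely alanine, cysteine, isoleucine and tryptophan. The split of isoleucine rests on Iars, not called without KD replicate 1 or control replicate 3 (log2 0.35 and 0.37), and on Iars2, not called without any 1 of the 6 libraries (log2 -0.25 to -0.21), and that of alanine on Aars, not called without control replicate 1 (log2 -0.37). The cysteine pair had Cars at -0.39 ± 0.11 and Cars2 at 0.83 ± 0.12 in KD against control, where Cars was not called with the 6 compared libraries alone (log2 -0.39, edgeR adjusted p = 0.064). As levels per kilobase of annotated exon, the ratio of Aars to Aars2 was 2.90 in FL, 7.88 in delta45, 1.82 in KD and 5.61 in control. That of Wars to Wars2 was 21.3, 12.5, 29.7 and 5.89 in the same order. For cysteine the ratio was 1.21 in FL, 1.16 in delta45, 0.835 in KD and 1.94 in control. The difference between the members of a pair was not tested.

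**Figure D4:**
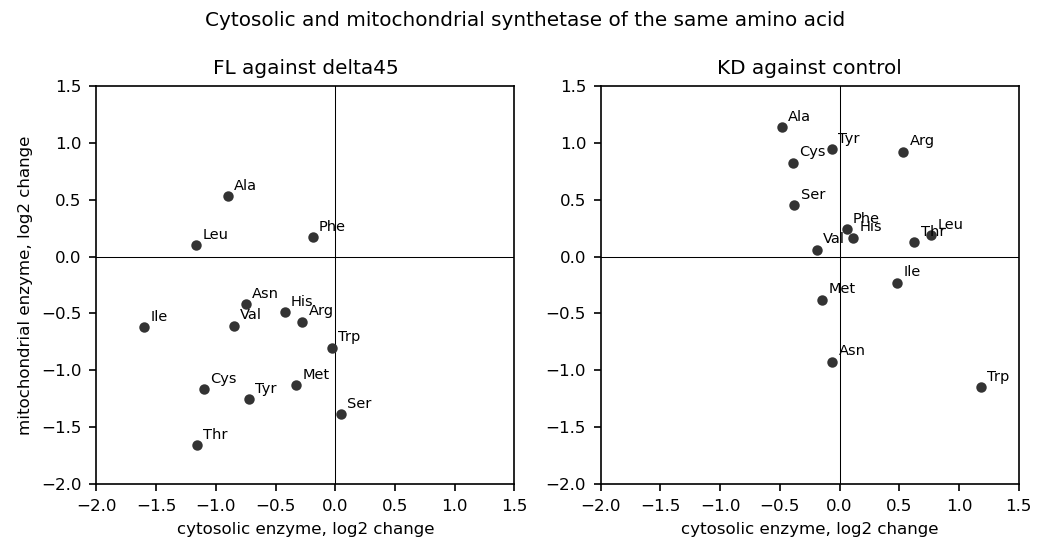
Log2 change of the mitochondrial enzyme (vertical axis) against that of the cytosolic enzyme (horizontal axis) for the 14 amino acids with both forms, in FL against delta45 (left) and KD against control (right). In FL against delta45 most points lie where both changes are negative, with alanine outside, and in KD against control tryptophan and alanine lie in opposite corners.

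The cytosolic set was also counted by subgroup. Of all genes 25.8% were higher and 27.0% lower in FL against delta45, and 29.2% and 30.7% in delta45 against KD. In FL against delta45 40.5% of all genes were called and changed at least 1.5-fold in either direction. In FL against delta45 the synthetases listed as ATF4 targets had 10 of 12 lower, 9 of them at least 1.5-fold, and 0 higher with a median of -0.83, and the other 8 had 6 lower, 3 of them at least 1.5-fold, and 1 higher with a median of -0.43. In delta45 against KD the ATF4 targets had 8 of 12 higher and 1 lower (median 0.64) and the others 5 of 8 higher and 0 lower (median 0.38). Complex enzymes had a median of -0.68 in FL against delta45 and those outside the complex -0.73. Class I enzymes, with the Rossmann-fold catalytic site, had 8 of 10 lower and 1 higher (median -0.79), and class II enzymes 8 of 10 lower and 0 higher (median -0.70). Eprs, which joins the glutamyl and the prolyl enzyme, was counted in class I alone. Differences between these subgroups were not tested. The 5 members whose promoter window holds TGATGNAA (Aars, Gars, Iars, Tars and Yars, shown above in part) had log2 changes in FL against delta45 of -0.90 ± 0.14, -0.74 ± 0.11, -1.60 ± 0.15, -1.16 ± 0.098 and -0.72 ± 0.13, all called. Of the 7 cytosolic members whose window has neither TGATGNAA nor CACGTG, Eprs (-1.08 ± 0.12), Kars (-0.93 ± 0.086), Dars (-0.44 ± 0.15) and Mars (-0.33 ± 0.12) were called lower as well, Farsa (-0.19 ± 0.10) and Sars (0.05 ± 0.14) were not called, and Qars (0.61 ± 0.10) was called higher.

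Genes that work beside the synthetases were read in the same fit, and their counts stand beside these shares of all genes: in FL against delta45 25.8% higher and 27.0% lower, in FL against KD 26.3% and 31.7%, in delta45 against KD 29.2% and 30.7%, and in KD against control 25.6% and 24.1%. The scaffolds of the multisynthetase complex, Aimp1, Aimp2 and Eef1e1, were lower in FL than in KD in 3 of 3 cases and lower in FL than in delta45 in 2 of 3. Eef1e1 averaged 18.6 ± 0.284 CPM in FL, 50.8 ± 8.57 in delta45, 32.4 ± 6.27 in KD and 14.7 ± 1.7 in control (FL against delta45 log2 -1.45 ± 0.16, edgeR adjusted p = 6.91e-06), and Aimp2 averaged 22.5 ± 2.86 CPM in FL, 38.6 ± 2.17 in delta45, 39.6 ± 7.64 in KD and 18.0 ± 1.7 in control (log2 -0.78 ± 0.15, edgeR adjusted p = 0.000798). In KD against control both of these were higher, Aimp2 by 1.14 ± 0.16 and Eef1e1 by 1.13 ± 0.16 (edgeR adjusted p = 6.13e-05 and 0.000101). Aimp1 was not called between FL and delta45 (log2 -0.14 ± 0.15, edgeR adjusted p = 0.456).

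Mitochondria make glutaminyl-tRNA by an indirect route, in which Ears2 charges the glutamine tRNA with glutamate and the amidotransferase of Qrsl1, Gatb and Gatc converts it. Of these 3 subunits and Mtfmt, the formylase of the initiator methionyl-tRNA, 2 of 4 were lower in FL than in delta45 and 0 higher, and 3 of 4 were higher in delta45 than in KD. Gatb averaged 9.62 ± 1.15 CPM in FL, 21.2 ± 0.686 in delta45, 15.4 ± 2.49 in KD and 10.8 ± 1.1 in control (FL against delta45 log2 -1.14 ± 0.16, edgeR adjusted p = 4.33e-05) and Qrsl1 averaged 5.00 ± 0.891 CPM in FL, 10.1 ± 0.237 in delta45, 6.73 ± 2.63 in KD and 4.26 ± 0.498 in control (log2 -1.02 ± 0.26, edgeR adjusted p = 0.00448). Gatc (log2 -0.00 ± 0.12) and Mtfmt (log2 0.05 ± 0.11) were not called there (edgeR adjusted p = 0.985 and 0.744). Editing and recycling factors, among them enzymes that remove wrongly joined amino acids from tRNA, had 4 of 6 lower in FL than in delta45 and 0 higher. Aarsd1, which edits mischarged alanine tRNA, averaged 18.1 ± 1.02 CPM in FL, 53.4 ± 3.07 in delta45, 46.5 ± 2.16 in KD and 34.1 ± 4.14 in control (log2 -1.55 ± 0.12, edgeR adjusted p = 1.7e-07). Tarsl2, a further cytosolic threonyl synthetase, averaged 21.3 ± 1.91 CPM in FL, 51.6 ± 1.93 in delta45, 36.5 ± 4.95 in KD and 43.0 ± 3.93 in control (log2 -1.28 ± 0.13, edgeR adjusted p = 2.3e-06), and Dtd1, which removes D-amino acids from tRNA, averaged 19.1 ± 0.789 CPM in FL, 37.7 ± 2.52 in delta45, 27.8 ± 1.37 in KD and 23.0 ± 3.37 in control (log2 -0.98 ± 0.12, edgeR adjusted p = 2.13e-05).

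Genes of tRNA maturation and export were mostly lower in FL than in delta45: 13 of 16 fell and 1, Tsen34, rose, and 9 of 16 were higher in delta45 than in KD and 1 lower. Nsun2, a tRNA cytosine methylase, averaged 119 ± 8.2 CPM in FL, 354 ± 23.3 in delta45, 188 ± 3.68 in KD and 163 ± 7.98 in control (FL against delta45 log2 -1.57 ± 0.095, edgeR adjusted p = 2.32e-08). Trmt1, a guanosine methylase, averaged 44.7 ± 1.99 CPM in FL, 109 ± 7.95 in delta45, 60.8 ± 1.75 in KD and 46.6 ± 3.41 in control (log2 -1.28 ± 0.10, edgeR adjusted p = 2.48e-07). Elac2, which trims the tail of tRNA precursors, averaged 42.1 ± 1.28 CPM in FL, 80.6 ± 2.25 in delta45, 49.2 ± 5.12 in KD and 34.1 ± 2.46 in control (log2 -0.93 ± 0.10, edgeR adjusted p = 7.34e-06). Here the knockdown also differed from control, with 10 of 16 higher in KD and 0 lower, where 25.6% of all genes were higher and 24.1% lower.

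Elongation factors carry charged tRNA to the ribosome and move it along. Of 5 cytosolic factors 3 were higher in FL than in delta45 and 1 lower, and 4 of 5 were lower in delta45 than in KD and 0 higher. Eef2, the translocation factor, averaged 4260 ± 164 CPM in FL, 2782 ± 106 in delta45, 3817 ± 188 in KD and 6566 ± 676 in control (FL against delta45 log2 0.61 ± 0.10, edgeR adjusted p = 0.000278). Eef1g averaged 75.7 ± 4.86 CPM in FL, 59.4 ± 1.98 in delta45, 133 ± 8.59 in KD and 188 ± 19.5 in control (log2 0.35 ± 0.10, edgeR adjusted p = 0.0118) and Eef1d averaged 96.7 ± 8.48 CPM in FL, 151 ± 7.66 in delta45, 195 ± 36.1 in KD and 188 ± 24.3 in control (log2 -0.64 ± 0.14, edgeR adjusted p = 0.00204). Of 4 mitochondrial factors 3 were lower in FL than in delta45, with Gfm1 at -0.69 ± 0.096 on the log2 scale (edgeR adjusted p = 4.91e-05), and Tufm was not called (log2 0.29 ± 0.18, edgeR adjusted p = 0.18).

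Genes of the pathway that senses uncharged tRNA and low heme were counted in the same way. Among eIF2 subunits, eIF2 kinases and their partners, 3 of 10 were higher in FL than in delta45 and 0 lower, a share of higher genes near the 25.8% of all genes. Eif2ak1 averaged 499.6 ± 12.2 CPM in FL, 198 ± 10.6 in delta45, 232 ± 33.1 in KD and 172 ± 10.4 in control (FL against delta45 log2 1.33 ± 0.11, edgeR adjusted p = 4.81e-07), and Ppp1r15b, a phosphatase subunit that reverses eIF2 phosphorylation, averaged 767 ± 78.9 CPM in FL, 520.1 ± 12.8 in delta45, 207 ± 23.1 in KD and 521 ± 11 in control (log2 0.56 ± 0.11, edgeR adjusted p = 0.000658). Ppp1r15a, the stress-induced subunit of the same phosphatase, averaged 353 ± 18.4 CPM in FL, 180.5 ± 16.9 in delta45, 226 ± 66.1 in KD and 265 ± 38.9 in control (log2 0.97 ± 0.19, edgeR adjusted p = 0.00074). Eif2ak4, the kinase GCN2 that binds uncharged tRNA, was not called (log2 0.03 ± 0.14, edgeR adjusted p = 0.861). Of 18 amino acid response genes tested, of 19 listed, 14 were lower in FL than in KD and 3 higher (31.7% and 26.3% of all genes), and 10 were lower in FL than in delta45 and 2 higher (27.0% and 25.8% of all genes). In delta45 against KD 10 were lower and 5 higher (30.7% and 29.2% of all genes). Mthfd2, a mitochondrial folate enzyme, averaged 24.2 ± 1.9 CPM in FL, 75.1 ± 2.12 in delta45, 51.1 ± 1.89 in KD and 91.7 ± 5.27 in control (FL against delta45 log2 -1.63 ± 0.10, edgeR adjusted p = 2.71e-08). Shmt2, which feeds the same mitochondrial folate cycle, averaged 69.1 ± 3.65 CPM in FL, 212 ± 15 in delta45, 130.2 ± 16.4 in KD and 93.1 ± 12.7 in control (log2 -1.61 ± 0.13, edgeR adjusted p = 2.36e-07). Both fell in FL against delta45, whereas Atf5, Sesn2 and Trib3 had the lowest adjusted p among the genes of this list that were lower in delta45 than in KD. Atf5, a transcription factor, averaged 46.4 ± 1.54 CPM in FL, 48.2 ± 2.8 in delta45, 180.3 ± 62.9 in KD and 57.1 ± 9.66 in control (delta45 against KD log2 -1.90 ± 0.21, edgeR adjusted p = 1.17e-05). Sesn2, an inhibitor of mTORC1, averaged 180.0 ± 10.9 CPM in FL, 124 ± 8.7 in delta45, 272 ± 44.3 in KD and 126 ± 13.2 in control (log2 -1.13 ± 0.13, edgeR adjusted p = 1.21e-05), and Trib3, a pseudokinase, averaged 44.7 ± 6.47 CPM in FL, 33.2 ± 3.65 in delta45, 166 ± 68.4 in KD and 131 ± 35.5 in control (log2 -2.32 ± 0.28, edgeR adjusted p = 1.91e-05). Atf4 itself averaged 359.7 ± 32.9 CPM in FL, 531 ± 37.8 in delta45, 565 ± 108 in KD and 312 ± 53.9 in control (delta45 against KD log2 -0.09 ± 0.16, edgeR adjusted p = 0.636). The levels of Atf4 mRNA and of these genes do not give the activity of the ATF4 protein.

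Amino acid transporters were mostly lower in FL than in delta45. Of 9 tested, of 10 listed, 7 were lower in FL than in delta45 and 0 higher, and 6 were higher in delta45 than in KD and 0 lower. Slc7a1, a carrier of arginine and lysine, averaged 52.0 ± 6.44 CPM in FL, 294 ± 9.8 in delta45, 128 ± 32.7 in KD and 126 ± 10.9 in control (FL against delta45 log2 -2.50 ± 0.17, edgeR adjusted p = 8.29e-08). Slc1a5, a glutamine carrier, averaged 52.4 ± 2.62 CPM in FL, 166 ± 11.1 in delta45, 75.5 ± 6.57 in KD and 74.4 ± 5.44 in control (log2 -1.66 ± 0.11, edgeR adjusted p = 3.6e-08), and Slc7a11, the cystine carrier, averaged 0.648 ± 0.184 CPM in FL, 10.1 ± 1.89 in delta45, 3.98 ± 0.985 in KD and 1.90 ± 0.703 in control (log2 -3.94 ± 0.34, edgeR adjusted p = 5.82e-07). Every one of these 3 was highest in delta45 and lowest in FL, but the list as a whole was not lowest in FL. The 10 listed summed to a mean of 1872 CPM in FL, 3056 in delta45, 1768 in KD and 1184 in control. Against KD 6 were lower and 2 higher in FL (31.7% and 26.3% of all genes). Against control 5 were lower and 3 higher in FL (31.2% and 28.1% of all genes). Whether any of these lists differs from the synthetases in its change was not tested.

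**Figure D5:**
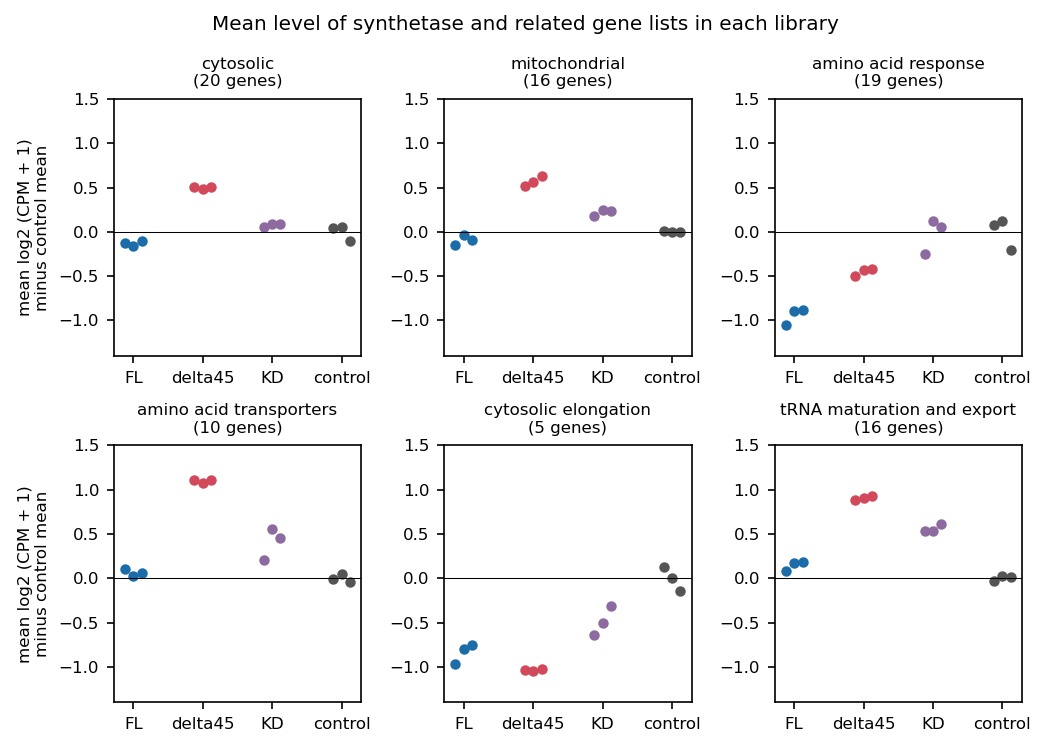
Mean of log2 (CPM + 1) over the genes of 6 lists in each library, minus the control mean, with groups on the horizontal axis and 1 point per library. Cytosolic and mitochondrial synthetases, transporters and tRNA maturation genes are highest in delta45, amino acid response genes are lowest in FL, and cytosolic elongation factors are lowest in delta45.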

How the data were processed

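Polyadenylated RNA of induced MEL cells was sequenced in 12 libraries, 4 groups of 3 named by the sample titles. Per the labels' protocols, an RNeasy kit gave the RNA, and the unstranded TruSeq RNA kit V2 the libraries. The authors deposited raw counts, whole numbers for each of 37991 Ensembl genes. Per the submitters' processing notes, the build was mm9 and the tools named include TopHat 1.4.1, HTSeq 0.5.3p9 and cutadapt 1.1; the sources used here do not give the annotation. The 5 rows that name no gene, which hold reads outside genes (2.117 to 6.133%), multiply aligned reads (38.69 to 53.31%) and other unassigned reads, entered neither library sizes nor tests. Gene reads per library ranged from 8783970 to 20464959. Symbols were matched for 32919 identifiers. Replicates differed by more than counting noise in every pair (chi-square per degree of freedom of at least 2.223).

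After filterByExpr, 12837 genes were scaled by TMM and fitted in edgeR 4.0.16 (R 4.3.3) by the quasi-likelihood test, with a mean per group over all 12 libraries. Calls rest on Benjamini-Hochberg adjustment over all tested genes within each of 6 comparisons. The standard error was taken as the size of the log2 change divided by the root of F. With 3 libraries a group, the smallest two-sided p of an exact permutation test is 0.1. On counts simulated for KD against control, with changes set in well-read genes, the test recovered 36% of 1.5-fold changes. It recovered 86% of 2-fold changes, with 12 false calls. Only a small part of the genes was changed in the simulation, whereas 49.7% were called in KD against control. The adjusted p depends on that part, so these shares do not measure what the reported tests recover. A member that was not called may still differ. Exon lengths and overlaps come from GENCODE vM21 and promoters from RefSeq, both GRCm38, a build other than the authors'. The members and lists were chosen with earlier results of these data known. The result of 1 gene of a related list is not reported here, and that list was counted without it. The rule named, in each comparison, up to 5 cytosolic and 3 mitochondrial members by size of change, up to 3 called against the majority, and Kars, Gars, Farsa, Farsb, Eprs, Qars and Wars, and up to 3 genes of each related list by adjusted p; other related genes and calls were named after their values were seen. Alternatives were RLE scaling, library totals, 2 other filters on low counts, DESeq2 1.42.0, the 6 compared libraries alone, replicate number as a block, and each library left out. Libraries with the same replicate number deviated together in FL against KD (r 0.14 to 0.33) and in delta45 against KD (r 0.12 to 0.33). In FL against delta45 the same-number r was 0.07 to 0.36. No label states a pairing, and the reported tests are unpaired: the replicate number entered only as the block among the alternatives.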

Additional observations from a re-analysis of the deposited data

Results flagged for a closer look

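FL and delta45 were each set against the same KD libraries, and 7 synthetases were called in opposite directions in these comparisons. They were higher in delta45 than in KD and lower in FL than in KD. This held for 5 of 20 cytosolic and 2 of 16 mitochondrial members, against 4.69% of all genes. The reverse held for 0 members of either class, against 3.19% of all genes. The difference between the FL and delta45 libraries was tested directly, as FL against delta45 in edgeR. Its log2 value was -1.10 for Cars, -1.08 for Eprs, -1.60 for Iars, -1.16 for Tars and -0.85 for Vars among cytosolic members, and -1.11 for Ears2 and -1.66 for Tars2 among mitochondrial members, each called. In FL against KD the call was lost for Eprs without FL replicate 2, FL replicate 3, KD replicate 1 or KD replicate 2 (log2 -0.26 to -0.14), for Iars without KD replicate 1 or KD replicate 2 (log2 -0.31 and -0.41) and for Ears2 without FL replicate 2, FL replicate 3, KD replicate 1 or KD replicate 3 (log2 -0.54 to -0.42). In delta45 against KD that of Ears2 was lost without delta45 replicate 3 (log2 0.46) or KD replicate 2 (log2 0.47). In all, FL and delta45 differed for 17 of 20 cytosolic and 14 of 16 mitochondrial members, where 52.8% of all genes were called. FL, delta45 and KD differed as well in Ldb1 mRNA, in erythroid markers and in interferon response genes, whose part in these differences was not tested. Construct, clone and culture cannot be told apart in these comparisons.

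Reads that fell outside annotated genes, which no comparison used, were more frequent with both constructs than in control. The lowest share among FL libraries was 3.502% and the lowest among delta45 libraries was 5.483%, against at most 3.19% in control. Whether this share bears on the synthetase values was not tested.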

How the results depend on the processing

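Of the recounts of higher and lower members under the alternatives, 284 stayed within 1.5 times the reported count and 28 did not. With library totals in place of TMM, 15 cytosolic members were lower in FL against KD (9 reported), 1 mitochondrial member was higher there (2 reported), 0 mitochondrial members were higher in FL against delta45 (1 reported), 1 was higher in FL against control (4 reported), and 2 were lower in KD against control (4 reported). Without the low-count filter 2 mitochondrial members were lower in KD against control. With the 6 compared libraries alone that count was 2, the cytosolic one was 1 (5 reported), and 1 mitochondrial member was higher in FL against KD. Leaving out each library in turn gave these ranges: in KD against control 2 to 6 cytosolic and 2 to 3 mitochondrial members lower, in FL against KD 1 to 2 higher in either class, in delta45 against KD 0 to 2 cytosolic and 1 to 2 mitochondrial members lower, and in FL against control 1 to 4 mitochondrial members higher. Lower members in FL against delta45 numbered 13 to 14 (cytosolic) and 12 to 13 (mitochondrial). The cause of these shifts was not tested.

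Among values of named members 1121 kept their direction and call, 53 lost the call, 11 gained it and 11 changed sign, the last all uncalled. With library totals these were Farsa (log2 -0.080) and Farsb (-0.21) in FL against KD and Gars (0.030) in delta45 against control. With each library left out in turn, the log2 change ranged from -0.018 to 0.18 for Farsb in FL against KD, from -0.079 to 0.028 for Qars in delta45 against KD, from -0.061 to 0.039 for Wars in FL against delta45, from -0.11 to 0.055 for Gars in delta45 against control and from -0.037 to 0.13 for Farsa in KD against control. With the replicate number as a block, 9 cytosolic members were lower in FL against KD and 13 higher in delta45 against KD, as reported. No call of a named member changed in either of these comparisons, where 5 of 6 libraries correlated best with their own number. In the other comparisons the block moved the calls over all genes to 6593 (6380 reported) in KD against control, 6936 (6778) in FL against delta45, 7819 (7616) in FL against control and 8408 (8271) in delta45 against control. There 2 of 6, 5 of 6, 2 of 6 and 2 of 6 libraries in that order correlated best with their own number. No label says whether same-numbered libraries belong together in any comparison. The least read member, Ears2, had 167 reads over the 3 control libraries, so small changes of the least read mitochondrial members may not be detectable at this depth.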
